A study of Mus musculus with 16 samples.

Results

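The 10 genes described here, Gpam, Agpat2, Lpin1, Lpin2, Dgat1, Dgat2, Mogat1, Mttp, Apob and Cd36, carry out hepatic triglyceride synthesis, fatty acid uptake and the assembly of very low density lipoprotein (VLDL). They were chosen by gene symbol, and all 10 were found among the 35502 genes of the deposited count table. All 10 also passed the filter on low counts, which left 13379 genes for testing. The samples are livers of 16 individual mice, 1 library per mouse, in 4 groups of 4. Sexually mature and sexually immature mice are each represented by controls, described as flox mice without Cre, and by LERKO mice with Cre, in which oestrogen receptor alpha (Esr1) is deleted in the liver. Both genotypes are therefore described as carrying the floxed gene, and only the LERKO mice carry Cre. The labels name neither the promoter that drives Cre nor strain, sex or age, while the title of the series speaks of knockout before and after sexual maturity. The time between deletion and sampling is likewise not stated. Nor is it stated whether the labelled stage is that at deletion or at collection. Mature and immature are used below as the labels give them. The comparisons ask whether the loss of the receptor, or the labelled stage, goes with different transcript levels of the machinery that makes and exports liver fat.

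Triglyceride is built on glycerol 3-phosphate in a fixed order of steps. Gpam, a glycerol 3-phosphate acyltransferase of the mitochondrial outer membrane, adds an acyl chain to make lysophosphatidic acid, and Agpat2 adds another to make phosphatidic acid. Lipins, here Lpin1 and Lpin2, remove the phosphate to give diacylglycerol, and Dgat1 and Dgat2 add the last acyl chain. Mogat1 makes diacylglycerol by another route, from monoacylglycerol. Mttp, the lipid-binding subunit of the microsomal triglyceride transfer protein, loads triglyceride onto apolipoprotein B, the product of Apob and the structural protein of VLDL. Cd36 is a membrane protein that takes up long-chain fatty acids; besides hepatocytes it is found on macrophages, endothelium, muscle and adipocytes.

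Total counts ran from 18123974 to 23213905 per library. Levels are given as CPM, that is counts per unit of sequencing depth, with TMM factors correcting for library composition. Esr1 averaged 82.2 ± 19.1 CPM in mature controls and 16.3 ± 2.19 CPM in mature LERKO mice, and at 73.6 ± 15.8 and 13.0 ± 2.19 CPM in the immature groups (SD, n = 4 each), without overlap between genotypes. All 6 hepatocyte markers were present, with summed levels of 85220 to 151400 CPM over the 16 libraries. Several libraries stood apart. Library 4 of mature LERKO held 19030 CPM of the acute phase gene Saa1, against at most 112.8 CPM in the other 15 libraries, and had the lowest TMM factor, 0.852. Its hepatocyte (85220 CPM), endothelial (77.2 CPM) and stellate and fibroblast marker sums (58.6 CPM) were the lowest of all libraries. Its Kupffer cell and macrophage marker sum (301.0 CPM) was the highest. Skeletal muscle markers summed to 671, 250.2 and 40.4 CPM in mature control libraries 1, 2 and 4 and to 110.7 CPM in library 4 of immature LERKO, and to at most 1.775 CPM in the other 12. In bulk liver, fewer cells of a type and less RNA per cell cannot be told apart.

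Promoter windows of RefSeq on GRCm38.p6, from 250 bases before to 50 bases after a transcript start, matched 8 of the 10 genes, with 11 windows in all; Dgat1 and Dgat2 had none in the table. The windows below are those of Lpin2 and Apob, the genes with the smallest unadjusted p-values between genotypes in mature mice, and of Lpin1 and Cd36, which varied most between livers among the 9 well-covered genes. Each is printed 5′ to 3′ on the strand of its gene, with matches to the searched motifs in capitals: AGGTCA or TGACCT for the nuclear receptor hexamer, CACGTG for the E-box, TATAAA for the TATA box and CCAAT for the CCAAT box. Of the 3 Lpin2 windows in the table, the one shown lies at chr17:71183282-71183581 on the forward strand. The Apob window lies at chr12:7977427-7977726 on the forward strand, the Lpin1 window at chr12:16610917-16611216 on the reverse strand and the Cd36 window at chr5:17835847-17836146 on the reverse strand.
Lpin2: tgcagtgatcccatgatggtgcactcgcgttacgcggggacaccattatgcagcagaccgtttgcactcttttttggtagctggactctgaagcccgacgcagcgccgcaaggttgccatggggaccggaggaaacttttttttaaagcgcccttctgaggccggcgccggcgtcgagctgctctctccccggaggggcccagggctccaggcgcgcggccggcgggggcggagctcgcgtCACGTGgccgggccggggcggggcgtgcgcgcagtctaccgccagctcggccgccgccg
Apob: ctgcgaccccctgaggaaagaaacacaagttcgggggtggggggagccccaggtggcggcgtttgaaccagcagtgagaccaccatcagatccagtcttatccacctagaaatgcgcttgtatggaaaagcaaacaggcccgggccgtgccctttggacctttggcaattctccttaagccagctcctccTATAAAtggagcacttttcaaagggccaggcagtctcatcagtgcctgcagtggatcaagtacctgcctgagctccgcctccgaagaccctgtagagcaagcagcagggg
Lpin1: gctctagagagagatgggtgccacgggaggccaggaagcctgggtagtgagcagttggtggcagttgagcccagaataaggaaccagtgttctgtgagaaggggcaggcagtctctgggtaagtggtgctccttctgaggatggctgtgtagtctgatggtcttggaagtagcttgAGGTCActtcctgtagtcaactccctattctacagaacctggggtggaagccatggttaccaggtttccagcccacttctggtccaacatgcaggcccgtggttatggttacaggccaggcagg
Cd36: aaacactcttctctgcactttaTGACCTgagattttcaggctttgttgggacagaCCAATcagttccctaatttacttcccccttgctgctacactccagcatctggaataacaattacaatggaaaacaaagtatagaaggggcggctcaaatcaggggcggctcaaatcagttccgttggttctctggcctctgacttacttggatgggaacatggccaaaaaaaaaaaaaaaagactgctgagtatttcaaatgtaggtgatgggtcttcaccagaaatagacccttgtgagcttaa

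On both strands the full oestrogen response element, GGTCA and TGACC set 3 bases apart, matched 0 of the 11 windows of these genes and 0.07% of all 32851 windows in the table. The nuclear receptor hexamer AGGTCA, which also forms each arm of many receptor elements, matched 3 of the 11 windows, in Lpin1, Cd36 and Gpam, and 16.3% of all windows. The E-box CACGTG matched 1 window, that of Lpin2 shown above, and 7.15% of all windows, and the TATA box TATAAA matched 1, that of Apob, and 13.6% of all. The CCAAT box matched 4 of 11 windows and 37.4% of all. The sterol element TCACNCCAC and the HNF4 core CAAAGTCCA matched 0 of 11, against 1.24% and 0.475% of all windows. No matches overlapped in the sequences shown. These are letter matches in short windows and describe the sequences only.

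The 10 genes covered a wide range of levels when set per kilobase of exon. Apob was the highest, with a median of 334.7 CPM per kb over the 16 libraries, followed by Dgat2 at 235.6. Agpat2 (70.1), Mttp (49.4), Lpin1 (32.1), Lpin2 (29.1) and Gpam (27.0 CPM per kb) formed the middle, Cd36 (10.3) and Dgat1 (5.30) were lower, and Mogat1 stood at 0.21 CPM per kb. Per length, Dgat2 transcript exceeded that of Dgat1 between 34.04- and 55.01-fold in every library. The neighbours Lpin1, Lpin2 and Gpam overlapped widely and cannot be ordered. Lengths are the union of annotated exons, so transcripts that use fewer exons are understated.

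**Figure D1:**
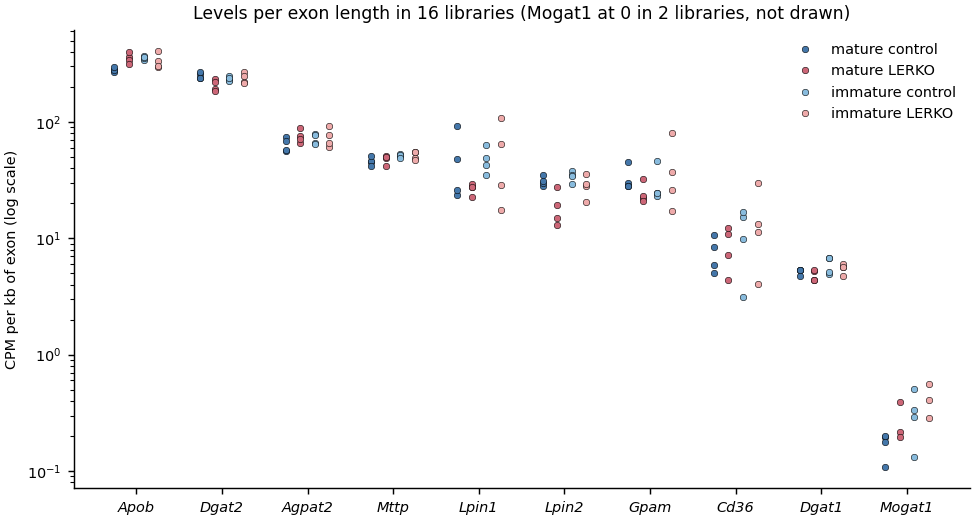
Level of the 10 genes as CPM per kilobase of exon (log axis), 1 point per library, coloured by group, with the genes ordered by their median over 16 libraries. Apob and Dgat2 stand above all other genes in every library and Mogat1 below all; its 2 libraries at 0 are not drawn.

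The genes also differed in how steady they were from liver to liver. Mttp ranged from 259.6 to 342.5 CPM over all 16 libraries, 1.32-fold from lowest to highest, Dgat2 1.47-fold, Apob 1.53-fold, Dgat1 1.57-fold and Agpat2 1.64-fold. Cd36 ranged 9.51-fold, Lpin1 6.19-fold, Gpam 4.67-fold and Lpin2 2.95-fold. Within groups, the SD of log2 CPM was 0.11 for Mttp, smaller than that of all but 5.37% of tested genes, and 0.91 for Cd36 and 0.77 for Lpin1, larger than that of 97.8% and 96.2%. The lipoprotein genes and the terminal acyltransferase Dgat2 were thus measured with narrow intervals, and Cd36, Lpin1, Gpam and Mogat1 with wide ones.

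Loss of the receptor was not followed by a called change in any of the 10 genes at either stage. In mature mice 0 of 10 passed an adjusted p of 0.05 in edgeR's quasi-likelihood test, where 0.00747% of all tested genes, Esr1 alone, did; the smallest adjusted p among the 10 was 0.481, for Lpin2. At an unadjusted p below 0.05, 3 of the 10 remained, Lpin2, Apob and Dgat2, against 7.30% of all genes. Without the 3 libraries with most muscle transcripts 1 of the 10 remained, in a fit that lacked mature control libraries 1 and 2 and so had fewer mature controls. The count over all genes also fell there, from 976 of 13379 to 360 of 13558. The log2 fold changes there were -0.83 for Lpin2, 0.29 for Apob and -0.30 for Dgat2, beside -0.73, 0.33 and -0.28 with all libraries. With all libraries, Lpin2, Apob and Dgat2 did not overlap between genotypes, Apob higher and Lpin2 and Dgat2 lower in LERKO. Of all tested genes 3.9% were separated, 1.61% upward and 2.29% downward. The 95% interval lay within 2-fold either way for 5 of the 10 genes and 81.2% of all genes. In immature mice 0 of 10 passed (0.00747% of all genes), 0 had an unadjusted p below 0.05 (2.76% of all genes) and 0 were separated (1.63% of all genes, 0.957% upward and 0.673% downward). Here the interval lay within 2-fold for 6 of 10, against 83.4% of all genes. The median log2 fold change of the 10 was -0.02 in mature and 0.02 in immature mice, beside -0.01 and 0.01 for all tested genes, with 5 and 7 of 10 positive. A count of members this small cannot be set against the background with any precision.

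**Figure D2:**
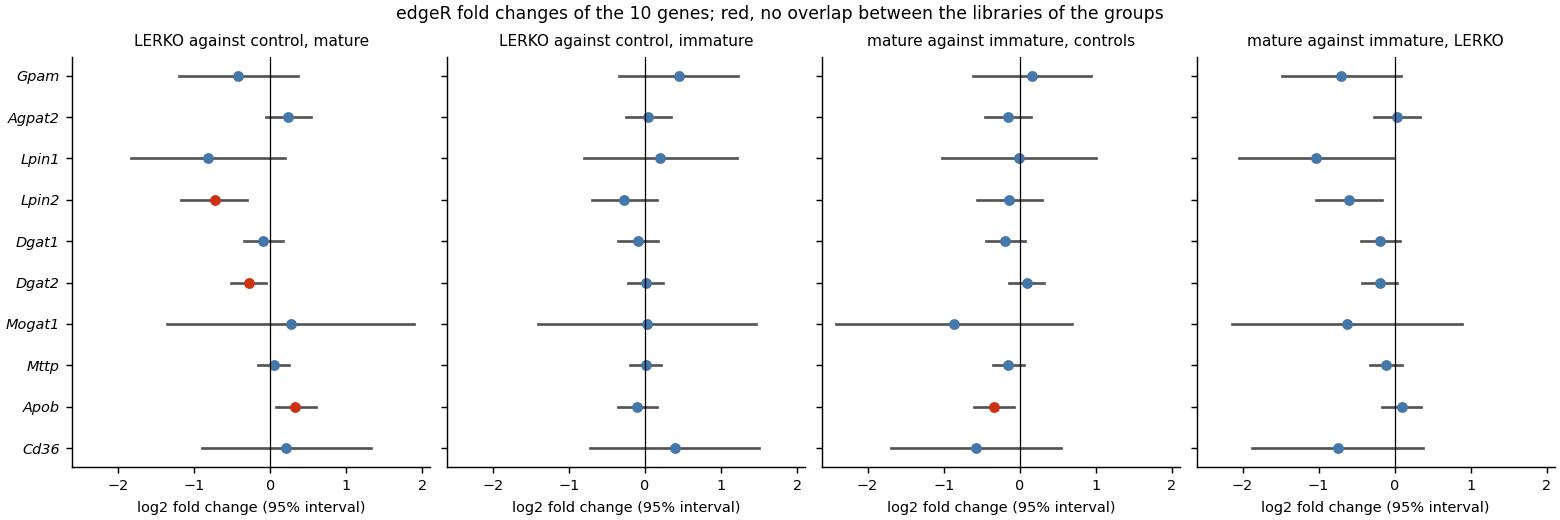
Log2 fold change (point) with its 95% interval (line) from edgeR for the 10 genes in 4 comparisons; red points mark genes whose libraries do not overlap between the groups. Red points appear for Lpin2, Dgat2 and Apob between genotypes in mature mice and for Apob between stages in controls, and no change passed after adjustment.

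Among the acyltransferases of the early steps, Gpam (chromosome 19, 55067268 to 55127238, reverse strand, GRCm38) held 200.8, 300.2, 185.9 and 187.8 CPM in mature controls and 215.7, 147.5, 152.3 and 138.7 CPM in mature LERKO mice. In immature mice it held 162.5, 153.2, 306.2 and 163.4 CPM in controls and 246.1, 113.6, 174.4 and 530.6 CPM in LERKO. The groups overlapped at both stages, and a single library was high in each of 3 groups. The log2 fold change in LERKO was -0.42 (SE 0.37, 95% interval -1.20 to 0.36) in mature and 0.44 (SE 0.37, -0.34 to 1.22) in immature mice, with adjusted p-values of 0.82 and 1.00 in edgeR. The immature value rested on library 4 of LERKO: without it the log2 fold change was -0.14.

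Agpat2 (chromosome 2, 26593057 to 26604417, reverse strand), which makes phosphatidic acid and whose loss in mice and people causes lipodystrophy, varied little. It stood at 136.5 ± 18.7 CPM in mature controls and 160.6 ± 21.2 CPM in mature LERKO (SD, n = 4 each), with ranges of 119.9 to 158.5 and 139.4 to 189.7 CPM. Immature controls ranged from 136.9 to 169.1 and immature LERKO from 130.4 to 196.1 CPM. All 4 groups overlapped, and the LERKO level was 118% of control (95% interval 95.6 to 145%) in mature and 103% (83.9 to 127%) in immature mice.

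Lipins gave the largest difference of the set between genotypes. Lpin2 (chromosome 17, 71182560 to 71249817, forward strand) encodes a phosphatidate phosphatase that is prominent in liver. It held 344.6, 364.8, 378.6 and 430.5 CPM in mature controls and 336.2, 236.3, 182.7 and 158.4 CPM in mature LERKO mice. Every mature LERKO library lay below every mature control, the highest LERKO library by a narrow margin. In edgeR the log2 fold change was -0.73 (SE 0.20, 95% interval -1.17 to -0.30), or 60.2% of control (44.5 to 81.3%), with an adjusted p of 0.481 in edgeR.

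In immature mice Lpin2 held 466.8, 428.8, 356.7 and 418.3 CPM in controls and 249.9, 343.7, 355.9 and 433.9 CPM in LERKO. Of these, 3 of the LERKO libraries lay below the lowest control and the other lay within the control range. The log2 fold change was -0.27 (SE 0.20, -0.70 to 0.16; adjusted p = 1.00, edgeR). Averaged over both stages it was -0.50 (SE 0.14, -0.81 to -0.20) with an unadjusted p of 0.00309 and an adjusted p of 0.999 in edgeR. The LERKO effects at the 2 stages differed by -0.46 (SE 0.29, -1.07 to 0.15), which did not pass (adjusted p = 0.80, edgeR).

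The lowest Lpin2 level of all libraries, 158.4 CPM, was in library 4 of mature LERKO, the library with the high Saa1 level. Without it the mature log2 fold change was -0.57 (SE 0.19, adjusted p = 0.542, edgeR), and without library 1 of that group, the highest, it was -0.98 (SE 0.18, adjusted p = 0.0972), the smallest adjusted p that any library left out gave for a member. Without the 3 libraries with most muscle transcripts (mature control 1 and 2, immature LERKO 4) it was -0.83 (SE 0.25, adjusted p = 1.00). Endothelial marker sums were 167.6 to 239.7 CPM in mature controls and 77.2 to 188.4 CPM in mature LERKO, and stellate and fibroblast sums 247.1 to 315.0 and 58.6 to 237.1 CPM. Their part in the Lpin2 values, and in those of Dgat2 and Apob, was not tested.

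Lpin1 (chromosome 12, 16535669 to 16610966, reverse strand), whose product is both a phosphatidate phosphatase and a coregulator of fatty acid oxidation genes, behaved differently. It held 463.6, 227.0, 252.9 and 884.8 CPM in mature controls and 266.6, 284.0, 264.6 and 220.8 CPM in mature LERKO mice. The controls at 227.0 and 252.9 CPM lay within the narrow LERKO range, and those at 463.6 and 884.8 CPM lay above it. In immature mice it held 337.2, 615.6, 414.0 and 474.6 CPM in controls and 277.2, 1044, 168.7 and 629.0 CPM in LERKO, where the highest and the lowest of all 16 libraries fell in the same group.

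The log2 fold change of Lpin1 in LERKO was -0.82 (SE 0.48, 95% interval -1.83 to 0.19) in mature and 0.20 (SE 0.47, -0.80 to 1.21) in immature mice, with adjusted p-values of 0.723 and 1.00 in edgeR. The mature value was -0.28 without control library 4, and the immature value -0.36 without LERKO library 2. Within single libraries the ratio of Lpin1 to Lpin2 per exon length ran from 0.788 to 2.60 in mature controls, 1.00 to 1.83 in mature LERKO, 0.914 to 1.82 in immature controls and 0.60 to 3.85 in immature LERKO. No group kept either lipin above the other throughout except mature LERKO, where the ratio was at least 1.00 in each library.

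Of the acyltransferases that finish triglyceride, Dgat2 (chromosome 7, 99153658 to 99182719, reverse strand), which works largely on newly made fatty acids, held 797.4, 727.5, 834.9 and 733.3 CPM in mature controls. Mature LERKO mice held 724.9, 676.4, 586.1 and 567.9 CPM. The groups did not overlap, although the highest LERKO and the lowest control library differed by less than the SD within either group. In LERKO the log2 fold change was -0.28 (SE 0.11, 95% interval -0.51 to -0.05), or 82.6% of control (70.4 to 96.9%), with an adjusted p of 0.645 in edgeR. Without library 4 of mature LERKO it was -0.19 (SE 0.10, adjusted p = 0.621).

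In immature mice Dgat2 held 708.6, 693.0, 769.7 and 739.5 CPM in controls and 819.9, 681.5, 669.9 and 768.7 CPM in LERKO. These groups overlapped throughout, at a LERKO level of 101% of control (86.1 to 118%). The difference between the LERKO effects at the 2 stages was -0.29 (SE 0.15, -0.62 to 0.04; adjusted p = 0.774, edgeR).

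Dgat1 (chromosome 15, 76502015 to 76511953, reverse strand), which has been linked to fatty acids arriving from outside, was low and even, at 15.8 ± 0.93 CPM in mature controls, 14.8 ± 1.65 CPM in mature LERKO, 18.02 ± 3.18 CPM in immature controls and 16.9 ± 1.70 CPM in immature LERKO (SD, n = 4 each). The groups overlapped, and the LERKO level was 94.0% of control (95% interval 78.4 to 113%) at both stages. Mogat1 (chromosome 1, 78510991 to 78538173, forward strand) was at the edge of detection, with 6, 6, 7 and 4 counts in mature controls, 12, 8, 6 and 0 in mature LERKO, 10, 4, 9 and 14 in immature controls and 19, 0, 8 and 13 in immature LERKO. The libraries at 0 were library 4 of mature LERKO and library 2 of immature LERKO, where 0 counts allow up to 0.178 and 0.16 CPM (3 counts, counting error only). At this depth the 95% interval of the mature LERKO level ran from 39.3 to 369.9% of control, so the counts leave both a fall and a rise possible.

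Mttp (chromosome 3, 138089854 to 138144968, reverse strand) ranged from 261.7 to 318.9 CPM in mature controls, 259.6 to 314.2 CPM in mature LERKO, 305.3 to 326.4 CPM in immature controls and 289.2 to 342.5 CPM in immature LERKO. Its LERKO level was 103% of control (95% interval 89.6 to 119%) in mature and 100.4% (87.1 to 116%) in immature mice. The intervals of Mttp were the narrowest of the 10 genes in both comparisons.

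Apob (chromosome 12, 7977648 to 8016835, forward strand) held 3895, 3711, 3923 and 4135 CPM in mature controls and 5043, 5579, 4721 and 4402 CPM in mature LERKO mice. Every mature LERKO library lay above every mature control, with a log2 fold change of 0.33 (SE 0.12, 95% interval 0.07 to 0.60), or 126% of control (105 to 151%), with an adjusted p of 0.592 in edgeR. Without library 4 of mature LERKO, the lowest of its group, it was 0.42 (SE 0.12, adjusted p = 0.542), and without the 3 libraries with most muscle transcripts 0.29 (SE 0.17, adjusted p = 1.00).

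Immature controls held 5160, 4741, 4900 and 5073 CPM of Apob, all above the mature controls, and immature LERKO mice 5659, 4608, 4098 and 4182 CPM. The immature genotypes overlapped, at a log2 fold change of -0.10 (SE 0.12, -0.36 to 0.16; adjusted p = 1.00, edgeR). Mature controls had the lowest mean of the 4 groups and overlapped immature LERKO alone, in which 1 library (4098 CPM) lay below the highest mature control; the other 3 groups overlapped one another. Between stages in controls the log2 fold change was -0.34 (SE 0.12, -0.60 to -0.08), with an adjusted p of 0.383 in edgeR. The LERKO effects at the 2 stages differed by 0.43 (SE 0.17, 0.06 to 0.80; unadjusted p = 0.0242, adjusted p = 0.768, edgeR). The knockout and stage comparisons share the mature control libraries, so these values are not independent of each other.

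Per exon length, Apob exceeded Mttp 5.78- to 6.68-fold in mature controls and 6.85- to 7.91-fold in mature LERKO, without overlap. In immature controls the ratio was 6.47 to 7.40 and in immature LERKO 5.46 to 8.24, with overlap. The ratio is taken within a library and does not depend on scaling between libraries. It uses the same Apob values as above, so its separation is not independent of that of Apob. The ratios of Lpin1 to Lpin2 and of Dgat2 to Dgat1 overlapped between genotypes in mature mice. How often ratios of other gene pairs separate was not examined. Counts over the gene do not separate edited from unedited Apob transcripts, which encode the short and the long form of the protein.

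Cd36 (chromosome 5, 17781690 to 17888801, reverse strand) held 21.2, 38.3, 17.96 and 30.3 CPM in mature controls and 39.4, 25.8, 43.8 and 15.9 CPM in mature LERKO mice. In immature mice it held 35.5, 11.3, 54.3 and 59.8 CPM in controls and 107.1, 14.5, 47.7 and 40.7 CPM in LERKO. Both genotypes overlapped widely at each stage. The log2 fold change in LERKO was 0.21 (SE 0.53, 95% interval -0.90 to 1.33) in mature and 0.39 (SE 0.52, -0.72 to 1.5) in immature mice, with adjusted p-values of 0.956 and 1.00 in edgeR. The immature value was -0.24 without LERKO library 1.

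Markers of other cells that carry Cd36 varied between libraries as well. Adipocyte markers, 6 genes, summed to 24.2 CPM in library 2 of immature LERKO, where Cd36 was 14.5 CPM, and to 2.16 CPM in library 1 of that group, where Cd36 was highest. They reached 23.4 CPM in immature control library 4, where Cd36 was the highest of the controls, and at most 12.5 CPM in the other 14 libraries; Lep was at 0 in 9 libraries. In mature control library 1, with the highest muscle marker sum, Cd36 was 21.2 CPM. Kupffer cell and macrophage markers summed to 144.5 CPM and endothelial markers to 109.4 CPM in library 1 of immature LERKO, within the ranges of the other libraries for the former and the lowest of its group for the latter. The part of these cells in the Cd36 values was not tested.

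**Figure D3:**
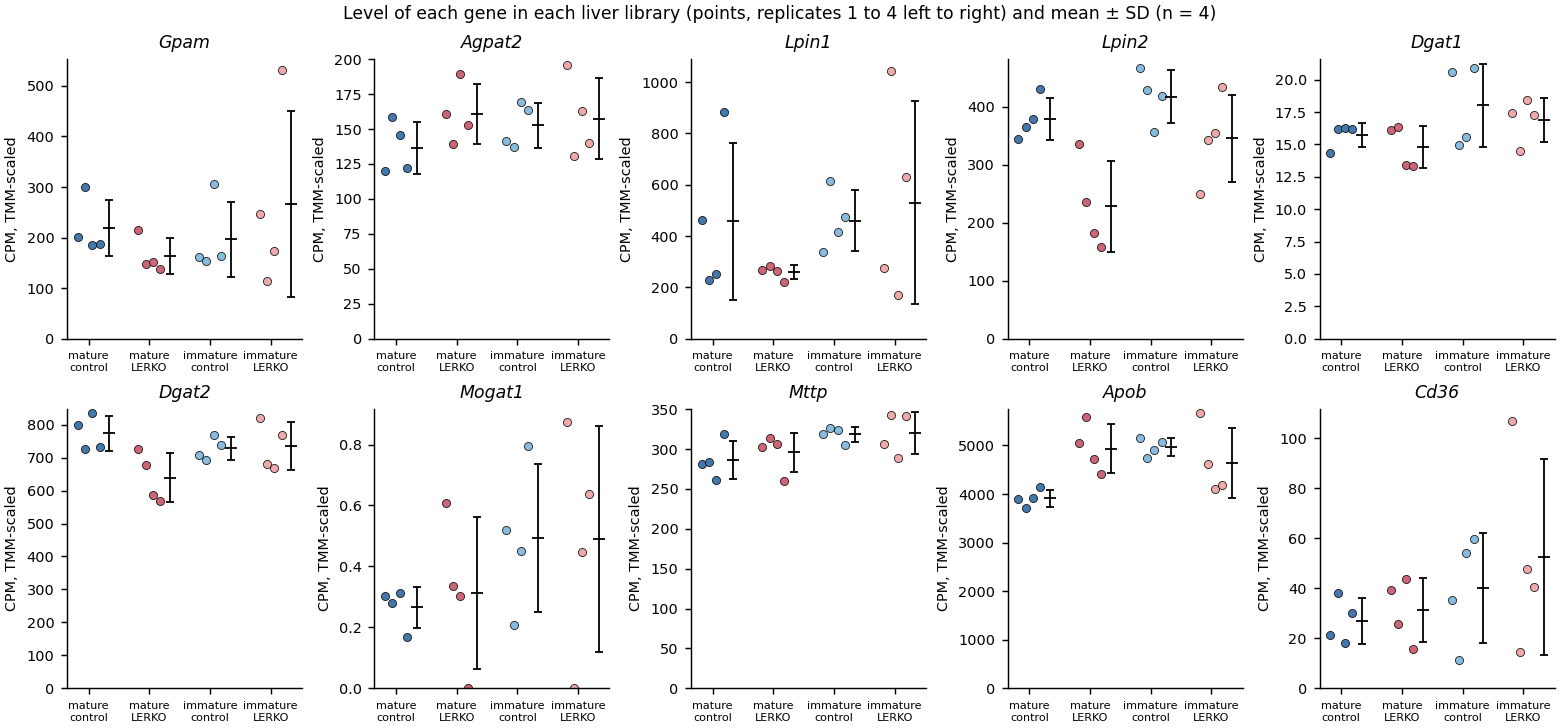
CPM of each gene in each of the 16 libraries (points, replicates 1 to 4 from left to right within a group) with the mean and SD of the 4 libraries of each group. Lpin2 and Dgat2 of mature LERKO lie below and Apob above all mature controls, while Lpin1, Gpam and Cd36 spread several-fold within immature LERKO.

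Between the labelled stages, 0 of 10 genes passed in controls (0.0% of all tested genes), with 1, Apob, at an unadjusted p below 0.05 (9.84% of all genes) and separated downward (8.86% of all genes were separated, 6.11% upward and 2.75% downward). The interval lay within 2-fold for 7 of 10 genes (78.8% of all genes). In LERKO mice 0 of 10 passed (0.0% of all genes), with Lpin2 and Lpin1 at an unadjusted p below 0.05 (4.93% of all genes) and 0 separated (1.52%, with 0.882% upward and 0.635% downward). The interval lay within 2-fold for 5 of 10 (83.5% of all genes). Lpin2 in mature LERKO was 66.0% (95% interval 48.9 to 89.2%) and Lpin1 48.9% (24.2 to 98.9%) of the immature LERKO level, with an adjusted p of 0.955 for both in edgeR. For Lpin1 this rested on library 2 of immature LERKO: the log2 fold change was -1.03 with it and -0.47 without. Averaged over both genotypes, all 10 genes had negative fold changes, mature against immature, with a median of -0.23 beside 0.02 for all tested genes, of which 55.3% were positive. Among the 10, 0 passed (0.0% of all genes) and 2, Lpin2 and Dgat1, had an unadjusted p below 0.05 (7.92% of all genes), while the interval lay within 2-fold for 7 of 10 (92.2% of all genes). That count of 2 was 0 without library 4 of immature LERKO and 0 without the 3 libraries with most muscle transcripts. It was from 1 to 4 with any other library left out. The count over all genes was 1060 of 13379 with all libraries. It was 1570 of 13486 without library 4 of immature LERKO and 1120 of 13558 without the 3 libraries. With TMM, RLE and unscaled library sizes all 10 remained negative. Without library 4 of immature LERKO Gpam was positive, at 0.02. The smallest adjusted p was 0.542, for Lpin2, at 77.5% of the immature level (62.7 to 95.8%), and the genes correlate with one another, so their signs are not independent. Marker sums of other cells also differed between stages in controls: endothelial sums were 167.6 to 239.7 CPM in mature and 112.6 to 166.4 CPM in immature controls, and stellate and fibroblast sums 247.1 to 315.0 and 157.5 to 205.4 CPM, both without overlap. Skeletal muscle markers reached 671 CPM in mature and at most 1.09 CPM in immature controls. In LERKO these sums overlapped between stages for endothelial (77.2 to 188.4 and 109.4 to 226.1 CPM) and stellate and fibroblast markers (58.6 to 237.1 and 147.8 to 295.1 CPM). Their part in the stage values, that of Apob in controls included, was not tested.

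For the difference of the LERKO effect between stages, 0 of 10 passed (0.0% of all genes), and Apob was the only gene of the 10 with an unadjusted p below 0.05 (6.35% of all genes). The interval lay within 2-fold for 5 of 10 genes (67.6% of all genes). For the LERKO effect averaged over both stages, 0 of 10 passed (0.00747% of all genes), and 1, Lpin2, had an unadjusted p below 0.05 (3.69% of all genes). In that average, with the most libraries behind it, the 95% interval lay within 2-fold either way for 7 of 10 genes (93.8% of all genes). Gpam stood at 100.7% of control (68.8 to 147%), but its log2 fold changes had opposite signs at the 2 stages, -0.42 in mature and 0.44 in immature mice. Mttp stood at 102% of control (92.1 to 113%), Dgat1 at 94.0% (82.7 to 107%), Dgat2 at 91.35% (81.6 to 102%), Apob at 108.5% (95.4 to 123%) and Agpat2 at 110.2% (95.15 to 127.5%).

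Around these 10 genes, a list of 54 other genes of the pathway was followed, of which 52 were tested. At an adjusted p of 0.05 in edgeR, 0 were called higher and 0 lower in each of the 7 comparisons, where 0.00747% of all genes were called in the 3 LERKO comparisons and 0.0% in the other 4. By sign alone, 19 were positive and 33 negative in mature LERKO, 22 and 30 in immature LERKO, and 16 and 36 for the average LERKO effect. Of all tested genes, 48.15%, 53.21% and 50.87% were positive in these comparisons. The sign counts were not tested, and correlation among the listed genes was not examined. Unadjusted p-values below 0.05 occurred for 5 of 52 between genotypes in mature mice (7.30% of all genes), 1 in immature mice (2.76%), 5 between stages in controls (9.84%) and 3 between stages in LERKO (4.93%). They occurred for 2 in the difference of LERKO effects (6.35%), 2 in the average LERKO effect (3.69%) and 6 in the average stage effect (7.92%). By role, the median log2 fold changes in mature LERKO were 0.07 for 6 genes of fatty acid activation and glycerol 3-phosphate supply and -0.02 for 8 other acyltransferases and phosphatases. They were -0.21 for 13 uptake genes, -0.08 for 16 genes of VLDL assembly and secretion and -0.16 for 9 regulators.

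The pathway genes with the smallest p in each comparison did not pass either. In mature mice these were Lpl, the lipoprotein lipase that frees fatty acids for uptake, with 16.6 ± 8.92 CPM in control and 8.24 ± 1.22 CPM in LERKO livers (adjusted p = 0.645, edgeR), and P4hb, the partner subunit of Mttp, at 1351 ± 55.8 and 1621 ± 281.9 CPM (adjusted p = 0.674). In immature mice they were Lipc, hepatic lipase, and Foxo1, an insulin-restrained activator of Mttp, both with an adjusted p of 1.00 in edgeR. Lipc averaged 234.7 ± 14.0 CPM in control livers and 169.6 ± 37.7 CPM in LERKO livers, without overlap. Of all tested genes 1.63% were separated there, 0.673% downward. Foxo1 averaged 94.6 ± 10.5 and 75.9 ± 8.67 CPM, with overlap. Between stages in controls they were Gpd1 and Gk. Gpd1, the cytosolic glycerol 3-phosphate dehydrogenase, averaged 138.9 ± 28.6 CPM in the mature and 236.9 ± 52.9 CPM in the immature group, and Gk, glycerol kinase, 103.6 ± 8.46 and 143.1 ± 27.8 CPM, with adjusted p-values of 0.262 and 0.357 in edgeR. Gk was separated between these groups and Gpd1 was not. Of all tested genes 8.86% were separated there, 2.75% downward. Between stages in LERKO they were Fabp2 (0.951) and Lrp1 (0.955), for the difference of LERKO effects Agpat1 and Hnf4a (0.773 each), for the average LERKO effect Foxo1 and Mia2 (0.999 each) and for the average stage effect Fabp2 (0.374) and Foxo1 (0.453), each value being the adjusted p in edgeR.

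Across livers the 10 genes did not vary as a block. Over 45 pairs, Pearson's r of log2 CPM in the 16 libraries ran from -0.60 to 0.76 with a median of 0.26. It was above 0.5 in 10 pairs, the highest being Mogat1 with Cd36 (0.76), Agpat2 with Cd36 (0.70) and Lpin1 with Mttp (0.69). It was below -0.5 in 1, Agpat2 with Lpin1 (-0.60). Lpin1 and Lpin2 had an r of 0.47. The libraries share the scaling, and the groups are included in these values; with group means removed r was 0.78 for Mogat1 with Cd36 and 0.76 for Lpin1 with Mttp. Other pairs moved more: Lpin2 with Dgat2 went from 0.62 to 0.29, Lpin1 with Lpin2 from 0.47 to 0.26, and Dgat2 with Apob from -0.09 to 0.59. Values with Mogat1 rest on 0 to 19 counts per library.

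**Figure D4:**
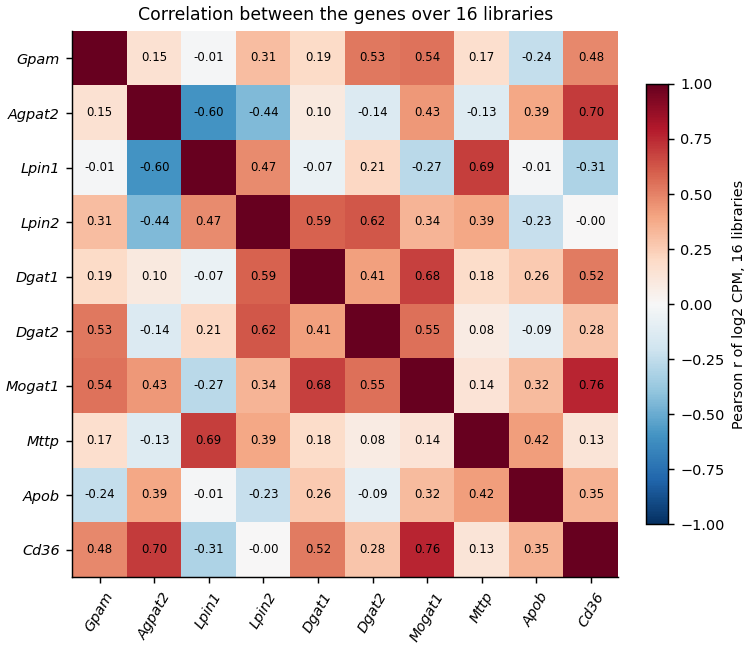
Pearson correlation of log2 CPM between the 10 genes over the 16 libraries (colour from -1 to 1, value in each cell). Cd36 goes with Mogat1 and Agpat2, and Lpin1 goes with Mttp and against Agpat2.

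Among 13369 other tested genes, those most like the 3 most variable of the 10 were sought by the same measure. For Mogat1 they were Vldlr, the VLDL receptor and itself a lipid uptake gene (r = 0.92), Sult1c2 (0.88) and Macrod1 (0.87). For Cd36 they were Aox1, an aldehyde oxidase (0.86), Lgals1, galectin 1 (0.85), and Sdhc, a subunit of succinate dehydrogenase (0.84). For Lpin1 they were Myadm (0.88), Cdip1 (0.82) and Chd7, a chromatin remodeller (0.82). Vldlr ran from 2.31 CPM in library 4 of mature LERKO, where Mogat1 was at 0, to 36.2 CPM in immature control library 4, the control library with most Mogat1. The extremes did not match throughout. Mogat1 was highest of all in library 1 of immature LERKO (0.874 CPM), which was not the highest for Vldlr. It was also at 0 in library 2 of immature LERKO, which was not the lowest for Vldlr. These are the highest of many correlations over 16 libraries and are given as a description.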

How the data were processed

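Liver RNA of 16 mice was sequenced as stranded, paired-end mRNA libraries, per the labels' protocols. The submitters' processing notes list STAR, limma, R 4.05 and the build mm10. The roles of these tools, the counter, the annotation and the strand setting are not stated there or in the labels. The table deposited by the authors holds raw counts per gene and library. Deposited values of 5 columns were treated as estimated counts, since 10 fractional entries occur there, in 2 genes, and were rounded. Columns were assigned to samples by their titles. The replicate numbers follow accession order and pair nothing.

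Genes were kept by filterByExpr (minimum count 10, minimum total 15), given TMM factors (0.852 to 1.07) and analysed by edgeR 4.0.16 (glmQLFit, glmQLFTest; R 4.3.3) in 1 model with a coefficient per group, adjusted by Benjamini-Hochberg over all 13379 genes, threshold 0.05. Standard errors are the size of the log2 fold change over the square root of F. The common biological coefficient of variation was 21.2%. The procedure was tested on simulated data. Correlations used log2 CPM with a prior count of 2. Each library is a mouse, so p-values measure the spread between mice.

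The genes, lists, named-gene rule and tests were chosen with earlier results of these data known. All 10 genes are named; of the other pathway genes, the 2 with the smallest p in each comparison, since none passed. Mogat2 was too low to test, and Mia3 was not analysed here. Positions are those of GENCODE vM21 (GRCm38), to which 35465 identifiers matched. Exons of Agpat2, Mttp and Mogat1 overlap antisense genes over at most 12.8% of their length; with the strand setting unknown, reads there cannot be told apart. Alternatives were DESeq2 1.42.0, limma-voom (limma 3.58.1), RLE factors, unscaled library sizes, other filters, a robust fit, an adjusted p of 0.1, the compared groups alone and libraries left out.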

Additional observations from a re-analysis of the deposited data

Results flagged for a closer look

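In groups of 4 libraries, a value was singled out where its gap to the nearest other library exceeded 0.829 of the group's range; chance does this in about 1 of 20 groups, and 3 of the 44 groups examined (the 10 genes and Esr1 in 4 groups each) met it. Gpam stood at 300.2 CPM in mature control library 2, against 185.9 to 200.8 CPM in the other 3. Gpam stood at 306.2 CPM in immature control library 3, against 153.2 to 163.4 CPM in the others. Dgat1 stood at 14.4 CPM in mature control library 1, against 16.2 to 16.3 CPM in the others, a small gap in a narrow group.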

How the results depend on the processing

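No member passed an adjusted p of 0.05 under any setting: over 70 fold changes and 1709 alternative values the smallest adjusted p was 0.0757 (DESeq2, Apob between stages in controls). The sign turned in 58 of the 1709 values, 41 of them with a library left out and 17 otherwise, in 19 fold changes whose size was at most 0.44. For LERKO against control in mature mice, Mogat1 was -0.28 with limma-voom and Mttp -0.01 with library size alone. In immature mice, without the 3 libraries with most muscle transcripts, Gpam was -0.14, Dgat2 -0.01, Mogat1 -0.12 and Mttp -0.02, and with limma-voom Lpin1 was -0.10 and Mogat1 -0.62. Between stages in controls, Gpam was -0.08 and Lpin1 0.30 without those 3 libraries, and Lpin1 0.07 with library size alone. Between stages in LERKO, Agpat2 was -0.04 and -0.01 under the same settings. The difference of LERKO effects was -0.08 for Mttp with library size alone, which also moved the median of all genes by -0.134. The mean LERKO effect of Gpam was -0.17 without the 3 libraries and -0.08 with limma-voom, where that of Mogat1 was -0.45. With each library left out in turn, the mature LERKO value of Mogat1 ran from -0.22 to 0.66. The immature values ran from -0.14 to 0.73 for Gpam, -0.08 to 0.12 for Agpat2, -0.36 to 0.50 for Lpin1, -0.05 to 0.06 for Dgat2, -0.43 to 0.42 for Mogat1, -0.03 to 0.05 for Mttp and -0.24 to 0.70 for Cd36. Between stages they ran from -0.05 to 0.44 for Gpam and -0.55 to 0.20 for Lpin1 in controls, and -0.07 to 0.14 for Agpat2 in LERKO. The difference of effects ran from -0.25 to 0.70 for Mogat1 and -0.48 to 0.45 for Cd36. The mean LERKO effect ran from -0.28 to 0.16 for Gpam, -0.10 to 0.35 for Mogat1 and -0.01 to 0.46 for Cd36, and the mean stage effect of Gpam from -0.40 to 0.02. The cause was not tested.

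Over all genes, edgeR called 1 between genotypes at each stage and in their mean, and 0 in the other comparisons. DESeq2 called 18 in mature and 13 in immature mice, 74 between stages in controls, 6 between stages in LERKO, 22 for the difference, 3 for the mean LERKO effect and 29 for the mean stage effect. The compared groups alone gave 6 between stages in controls. With a library left out, the count was 1 to 2 in mature mice (2 without library 1 of mature LERKO), 0 to 1 between stages in controls (1 without library 4 of mature LERKO) and 0 to 1 between stages in LERKO (1 without library 1 of mature LERKO). Mogat1 was too low for the CPM filter and for the compared groups alone, a setting that does not exist for comparisons over all 4 groups. No paired analysis was possible because the labels give no replicate numbers or pairing. Mogat1 rests on 0 to 19 counts per library, and its SD of log2 CPM within groups was larger than that of 98.5% of tested genes. Gpam, Lpin1 and Cd36 had far more counts and varied widely between the 4 mice of a group. How far depth and spread each limit these genes was not tested.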

Other observations

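Gpam shared its high libraries with Fasn, the fatty acid synthase that supplies new acyl chains; this gene was chosen after its values were seen. The 3 libraries with most Gpam, library 4 of immature LERKO (530.6 CPM), immature control library 3 (306.2 CPM) and mature control library 2 (300.2 CPM), were also the 3 with most Fasn, at 4024, 1353 and 1470.0 CPM. All other libraries held between 123.2 and 971.2 CPM of Fasn. Over the 16 libraries Pearson's r of log2 CPM was 0.83, and 0.73 without library 4 of immature LERKO. The 3 libraries belong to 3 different groups. Scd1, a fatty acid desaturase also looked at, did not share all of these high libraries. It was highest in library 4 of immature LERKO, at 25700 CPM. Next was mature control library 4, at 9497 CPM, where Gpam was 187.8 CPM. Mature control libraries 2 and 1 held 8083 and 7081 CPM of Scd1, and immature control library 3 held 6633 CPM.

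Library 4 of mature LERKO, with 19030 CPM of Saa1, was the lowest of its group for 9 of the 10 genes, Agpat2 being the exception. Of all tested genes, 33.0% were lowest and 35.2% highest in that library within its group. In immature control library 2, 7 of the 10 were the lowest of the group, where 21.9% of all tested genes were.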
